A study of Mus musculus with 8 samples.

Results

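GMP-MoP cells were set against the midpoint of cMoP and proNeu1 cells, taken as the average of the 2 group means on the log2 scale, at the 45462 of 61196 deposited open regions that had enough counts to be tested. The question is where the chromatin of GMP-MoP departs from a state halfway between a monocyte progenitor and an early neutrophil progenitor, and at which regions it stands level with cMoP or with proNeu1. The contrast uses 6 of the 8 libraries, 2 each of GMP-MoP, cMoP and proNeu1, and the 2 proNeu2 libraries are given beside it. The cells were sorted from mouse bone marrow (BM), 5000 to a tube, and open DNA was cut and tagged with the Tn5 transposase (ATAC-seq). The labels give the sorted population as the only difference between groups. The sources used here give no strain, age, sex or sort markers. The samples are called biological replicates, but no label ties them to separate animals. The p-values therefore rest on the spread within these pairs of libraries, part of which may be technical.

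In the field's usual terms, cMoP is the common monocyte progenitor and proNeu1 an early committed neutrophil progenitor. Both descend from granulocyte-monocyte progenitors (GMP). The labels do not spell out GMP-MoP, and the name is used here as given. The transcription factor IRF8, working with PU.1 (Spi1), drives monocyte and dendritic cell fate, and C/EBP factors with GFI1 drive the granule programme of neutrophils. Open regions at promoters and enhancers are where such factors bind, so the set of open regions is a record of which lineage programme is accessible, not of how strongly a gene is transcribed. In these bulk libraries, a region at an intermediate level in every cell and a region open in a share of the cells cannot be told apart.

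Counts over the 61196 deposited regions summed to 1388525 and 1715928 in GMP-MoP, 1907810 and 1896924 in cMoP, and 1515953 and 1572001 in proNeu1. At regions with at least 80 counts in a group, replicate counts varied 1.47 times as much as counting alone gives in GMP-MoP, 1.36 times in cMoP and 1.31 times in proNeu1 (chi-square per degree of freedom). Levels below are in CPM, counts brought to the same total per library with TMM factors over the 6 libraries, and are given for each pair of libraries in order of replicate number. All coordinates are on mm10.

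The promoter windows of 4 genes that the results turn on are printed from RefSeq (GRCm38.p6, the assembly of mm10), 5′ to 3′ on the strand of the gene, running from 250 bases before the start to 50 after it. Irf8 and S100a9 are among the promoters at which GMP-MoP stood with cMoP against proNeu1, at the high and the low end. E2f1 stands for the promoters below the midpoint, and Nfkbie is a promoter below both populations. Capitals mark the GC box GGGCGG on either strand, the letters that SP1 and KLF factors read, except in S100a9, where they mark the C/EBP letters TTGCNNAA.
Irf8, a promoter high in GMP-MoP and cMoP, chr8:120736108-120736407, plus strand: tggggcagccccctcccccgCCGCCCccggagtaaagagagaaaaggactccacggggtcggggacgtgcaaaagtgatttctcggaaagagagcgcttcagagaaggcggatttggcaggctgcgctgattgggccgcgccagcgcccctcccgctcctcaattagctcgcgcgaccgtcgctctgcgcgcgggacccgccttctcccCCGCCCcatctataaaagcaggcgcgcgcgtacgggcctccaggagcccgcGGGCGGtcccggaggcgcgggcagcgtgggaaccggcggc
S100a9, a promoter low in GMP-MoP and cMoP, chr3:90695672-90695971, minus strand: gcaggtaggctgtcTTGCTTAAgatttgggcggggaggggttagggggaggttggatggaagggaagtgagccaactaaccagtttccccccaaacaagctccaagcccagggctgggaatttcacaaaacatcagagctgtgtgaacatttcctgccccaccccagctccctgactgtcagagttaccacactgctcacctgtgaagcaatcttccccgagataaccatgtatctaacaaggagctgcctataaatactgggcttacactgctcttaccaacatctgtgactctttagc
E2f1, a promoter below the midpoint, chr2:154569377-154569676, minus strand: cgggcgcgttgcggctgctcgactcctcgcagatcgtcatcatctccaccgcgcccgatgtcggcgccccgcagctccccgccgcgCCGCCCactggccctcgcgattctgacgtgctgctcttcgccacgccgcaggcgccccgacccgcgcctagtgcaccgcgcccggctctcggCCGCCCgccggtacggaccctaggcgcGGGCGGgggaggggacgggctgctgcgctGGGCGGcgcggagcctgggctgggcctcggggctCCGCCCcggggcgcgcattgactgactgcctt
Nfkbie, a promoter below both populations, chr17:45555450-45555749, plus strand: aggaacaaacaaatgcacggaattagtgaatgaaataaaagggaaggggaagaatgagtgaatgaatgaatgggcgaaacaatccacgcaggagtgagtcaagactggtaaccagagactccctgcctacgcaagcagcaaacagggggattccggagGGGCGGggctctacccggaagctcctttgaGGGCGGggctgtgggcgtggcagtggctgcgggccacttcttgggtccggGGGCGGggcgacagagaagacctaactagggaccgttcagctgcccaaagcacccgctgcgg
The Irf8 window held 3 GC boxes and had 70.0% GC, the E2f1 window 5 with 77.3% GC and the Nfkbie window 3 with 58.0% GC, while the S100a9 window had 51.3% GC, 1 match to the C/EBP letters and 1 GC box, left in lower case. A match describes the letters only and is no evidence of binding.

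GMP-MoP was called away from the midpoint at few regions, and where cMoP and proNeu1 differed the calls lay mostly on the cMoP side. Of 45462 regions tested, 645 (1.42%) were called: 506 (1.11%) above the midpoint and 139 (0.306%) below it (edgeR quasi-likelihood F test, Benjamini-Hochberg adjusted p under 0.05). Before adjustment, 6798 regions (14.95%) had a p under 0.05, so the small number of calls does not show that few regions departed. In the same fit GMP-MoP and cMoP were called different at 2307 regions (5.07%), with GMP-MoP higher at 2.10% and lower at 2.97% of all tested. GMP-MoP and proNeu1 were called different at 10975 (24.1%), with GMP-MoP higher at 11.8% and lower at 12.3%, and proNeu1 and cMoP at 19665 (43.3%), with proNeu1 higher at 22.0% and lower at 21.2%. These comparisons share their libraries. Among the 19665 regions that differed between proNeu1 and cMoP, 512 (2.60%) were called away from the midpoint, 470 of them toward cMoP and 42 toward proNeu1. The 470 divide into 366 regions higher in cMoP with GMP-MoP above the midpoint and 104 regions higher in proNeu1 with GMP-MoP below it. Of the 9646 regions higher in cMoP, edgeR called 0 below the midpoint, with 68 at an unadjusted p under 0.05.

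The number of calls depended on single libraries and on the scale. With 1 GMP-MoP library left out, calls above and below numbered 403 and 247 (replicate 1 left out) or 23 and 2 (replicate 2). With 1 cMoP library left out they numbered 234 and 34 (replicate 1) or 464 and 147 (replicate 2), and with 1 proNeu1 library left out 262 and 44 (replicate 1) or 188 and 58 (replicate 2). DESeq2 called 0 regions in either direction, with 1772 at an unadjusted p under 0.05, and limma-voom called 291 above and 93 below. A midpoint on the log scale lies below the plain average of the 2 CPM means wherever these differ. Against that plain average, 502 of the 506 regions above kept their side. The 139 below could not change side, since the plain average is never the lower midpoint. A test against it with delta-method errors called 69 above and 140 below. The excess of calls above over calls below therefore does not hold on the CPM scale. On that scale, 28 of the calls above and 2 of the calls below were at regions higher in cMoP, against 5 above and 128 below at regions higher in proNeu1.

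**Figure D1:**
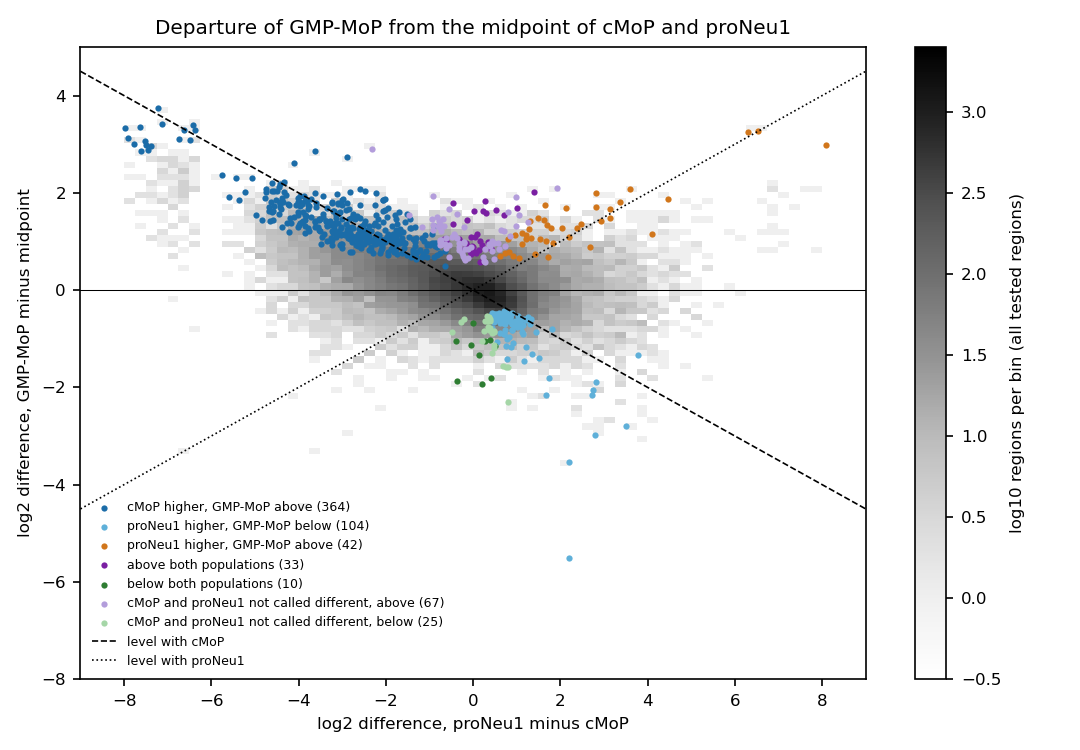
Log2 difference of GMP-MoP from the midpoint (vertical) against the log2 difference proNeu1 minus cMoP (horizontal), with all 45462 tested regions as grey density (without those beyond 8 horizontally or 5 vertically) and the 645 called regions as points coloured by class. The 364 points in dark blue lie along the dashed line of equality with cMoP. Of the 42 orange points, 35 lie above the dotted line of equality with proNeu1 and the rest below it.

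Over the 12979 regions at which cMoP and proNeu1 differed by at least 2 fold, GMP-MoP lay nearer cMoP. Its position on the log2 scale, 0 at the cMoP level and 1 at the proNeu1 level, had a median of 0.33 (quartiles 0.17 and 0.52), and 9412 regions (72.5%) lay nearer cMoP against 3567 nearer proNeu1. The median was 0.39 from GMP-MoP replicate 1 alone and 0.31 from replicate 2 alone. The values for single libraries were read from log2 CPM with a prior count of 2 added, not from the fitted levels. GMP-MoP was within 0.32 log2 units of cMoP at 3176 of these regions and within 0.32 log2 units of proNeu1 at 837. The 95% interval of the difference lay within 2 fold of cMoP at 2862 regions and within 2 fold of proNeu1 at 507.

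In the fit of the 6 libraries the position differed with the direction of the difference, and which direction lay nearer cMoP turned with the scale. At the 8304 regions higher in cMoP the median position was 0.28 on the log2 scale and 0.47 on the CPM scale, with 81.3% and 54.6% of regions nearer cMoP. At the 4675 regions higher in proNeu1 it was 0.44 on the log2 scale and 0.29 on the CPM scale, with 57.0% and 76.1% nearer cMoP. Over all regions of each set the medians were under 0.5 on both scales, but not in every range of fold. At the 1715 regions at least 8 fold higher in cMoP the median was 0.26 on the log2 scale and 0.55 on the CPM scale, with 88.2% and 40.1% nearer cMoP. At regions higher in proNeu1 by 4 to 8 fold (899 regions) and by at least 8 fold (558 regions) the log2 median was 0.51 in each, with CPM medians of 0.30 and 0.21. With cMoP replicate 2 left out, the log2 median of the regions higher in proNeu1 was 0.51. The log2 difference by direction was not seen in every split of the replicates. The splits took regions at least 4 fold apart in 1 replicate number, without a test. They gave the ratio of the median log2 differences in the other, a measure unlike the median position above. For regions chosen in replicate 2 and measured in replicate 1, the ratio was 0.383 at regions higher in cMoP and 0.374 at regions higher in proNeu1. With the replicates exchanged it was 0.314 and 0.417.

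**Figure D2:**
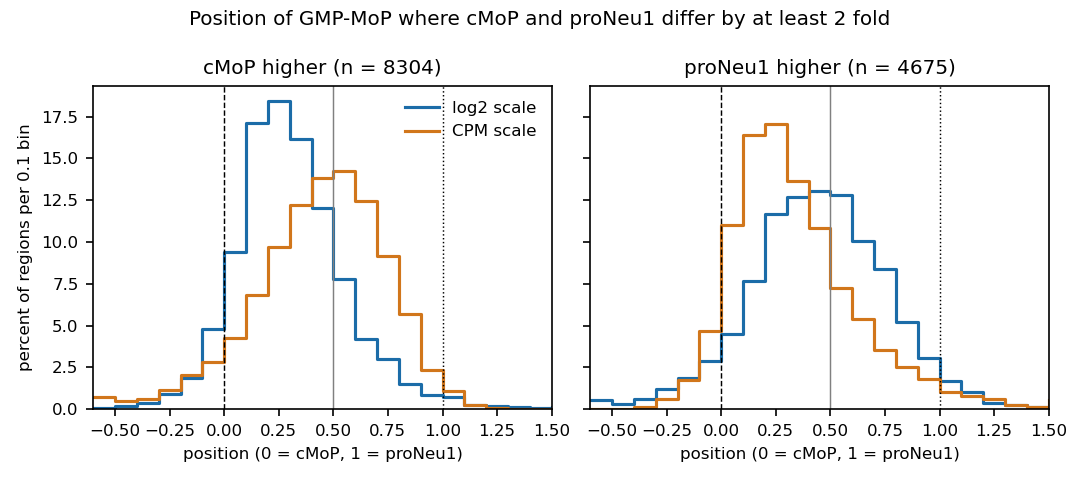
Percent of regions in each 0.1 step of position (horizontal, 0 at cMoP and 1 at proNeu1), on the log2 scale in blue and the CPM scale in orange, for regions higher in cMoP (left) and higher in proNeu1 (right). The log2 curve peaks nearer cMoP in the left panel (median 0.28) than in the right (0.44), and the CPM curves have the opposite order (0.47 and 0.29).

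At the largest class, 364 regions were higher in cMoP than proNeu1 and held above the midpoint in GMP-MoP (366 before 2 regions above both populations are set apart). GMP-MoP was within 0.32 log2 units of cMoP at 203 of them, exceeded cMoP at 135, and differed from cMoP by the test at 16. As the call used the same libraries, these counts describe the chosen regions only. The class takes in regions at Irf8, Irf5, Tlr4, Tlr7, Ctss, Ciita, Siglech, Msr1 and Tnfrsf1b. The median departure was 1.28 on the log2 scale, and 1.248 with the 16 regions at which proNeu1 had no count set at their bound.

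The Irf8 promoter region (chr8:120735825-120736872), whose sequence is printed above, had 30.6 and 22.4 CPM in GMP-MoP, 31.0 and 31.9 CPM in cMoP and 4.43 and 4.97 CPM in proNeu1. Both GMP-MoP libraries lay far above both proNeu1 libraries and just below the cMoP libraries. The log2 difference from the midpoint was 1.095 (SE 0.285, edgeR adjusted p = 0.0183), and GMP-MoP minus cMoP was not called (edgeR adjusted p = 0.62). A region 1277 bp outside Irf5 (chr6:29523728-29524853), which encodes another interferon regulatory factor of myeloid cells, had 32.9 and 27.7 CPM in GMP-MoP, 47.5 and 44.2 CPM in cMoP and 6.64 and 2.84 CPM in proNeu1. There the GMP-MoP libraries fell between the others without overlap, closer to cMoP (log2 difference from the midpoint 1.02, SE 0.275, edgeR adjusted p = 0.0217).

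Within Tlr4, the receptor for bacterial lipopolysaccharide (chr4:66843178-66843936), levels were 26.1 and 15.9 CPM in GMP-MoP, 21.3 and 30.3 CPM in cMoP and 2.21 and 2.13 CPM in proNeu1. GMP-MoP and cMoP overlapped and both lay clear of proNeu1 (log2 difference 1.43, SE 0.374, edgeR adjusted p = 0.0099). A region within Nod2, a sensor of bacterial peptidoglycan (chr8:88668271-88669457), had 78.4 and 82.0 CPM in GMP-MoP, 97.7 and 98.4 CPM in cMoP and 16.2 and 22 CPM in proNeu1 (0.89, SE 0.165, edgeR adjusted p = 0.000435). Nod2 was picked after its values were seen, as 1 of the 10 regions with the smallest p.

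At 16 regions of this class proNeu1 had no count in either library, among them 1 each at Tlr7, Ctss and Ciita. Near Tlr7, a sensor of single-stranded RNA (chrX:167334499-167335165), GMP-MoP had 11.2 and 8.85 CPM, cMoP 9.61 and 12.2 CPM and proNeu1 0 and 0. Against a floor of 3 counts over the proNeu1 group, GMP-MoP was at least 9.24-fold higher than proNeu1. Within Ctss, the cathepsin S protease of antigen presentation (chr3:95529738-95530402), GMP-MoP had 8.22 and 15.9 CPM, cMoP 22.4 and 17.0 CPM and proNeu1 0 and 0, which makes GMP-MoP at least 11.1-fold higher than proNeu1. Within Ciita, the master regulator of MHC class II genes (chr16:10487752-10488521), GMP-MoP had 8.22 and 9.44 CPM, cMoP 13.9 and 14.9 CPM and proNeu1 0 and 0, at least 8.13-fold higher in GMP-MoP than in proNeu1. The edgeR adjusted p-values of the midpoint contrast were 0.00548 for Tlr7, 0.0051 for Ctss and 0.0218 for Ciita, and the SE is not defined with a group at 0.

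The class also held 1 region each at Tnfrsf1b, Msr1 and Siglech. Within Tnfrsf1b, which encodes the second receptor of tumour necrosis factor (chr4:145233295-145234613), levels were 54.5 and 50.8 CPM in GMP-MoP, 78.4 and 59.6 CPM in cMoP and 8.86 and 5.68 CPM in proNeu1. The GMP-MoP libraries lay just under cMoP and well over proNeu1 (log2 difference 1.23, SE 0.223, edgeR adjusted p = 0.000171), and the call held with each of the 6 libraries left out. Within Msr1, a scavenger receptor of macrophages (chr8:39618600-39620506), levels were 40.3 and 44.9 CPM in GMP-MoP, 47.5 and 46.8 CPM in cMoP and 11.1 and 7.81 CPM in proNeu1 (1.02, SE 0.218, edgeR adjusted p = 0.00331). A region 4710 bp outside Siglech, a marker of plasmacytoid dendritic cells (chr7:55784158-55785224), had 56.8 and 54.3 CPM in GMP-MoP, 59.8 and 67.0 CPM in cMoP and 16.2 and 16.3 CPM in proNeu1 (0.78, SE 0.185, edgeR adjusted p = 0.00935). At all 3 of these the 2 GMP-MoP libraries were close to each other and nearer to cMoP than to proNeu1.

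A region outside Cxcr4, the receptor that holds progenitors in the marrow (chr1:128607791-128608812), had 28.4 and 33.6 CPM in GMP-MoP, 42.2 and 53.2 CPM in cMoP and 2.21 and 2.84 CPM in proNeu1 (1.49, SE 0.329, edgeR adjusted p = 0.00129). Regions of the transcription factor genes Runx1 and Mecom were called as well. Within Runx1 (chr16:92675283-92676429) levels were 17.9 and 17.7 CPM in GMP-MoP, 21.3 and 27.1 CPM in cMoP and 2.21 and 2.84 CPM in proNeu1 (1.17, SE 0.361, edgeR adjusted p = 0.0481). Within Mecom (chr3:30413911-30414846), which encodes the stem cell factor EVI1, levels were 13.4 and 15.3 CPM in GMP-MoP, 13.3 and 18.6 CPM in cMoP and 0.738 and 0.71 CPM in proNeu1, a ratio of GMP-MoP to proNeu1 of 20.05 (95% interval 5.23 to 171, counting error only, 44 counts in GMP-MoP and 2 in proNeu1). At both regions GMP-MoP lay clear of proNeu1, and GMP-MoP minus cMoP was not called (edgeR adjusted p = 0.41 for Runx1 and 0.88 for Mecom). The strongest Runx1 region, at a promoter (chr16:92696890-92699250), had 63.5 and 61.4 CPM in GMP-MoP, 74.7 and 56.4 CPM in cMoP and 93.7 and 87.3 CPM in proNeu1. It lay on the other side of the midpoint and was not called (-0.30, SE 0.15, edgeR adjusted p = 0.309).

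Of 24 calls of this class that were followed with each library left out, 17 were kept without the first and 4 without the second GMP-MoP replicate, 22 and 24 without the first and the second cMoP replicate, and 17 and 13 without the first and the second proNeu1 replicate. The calls lost had edgeR adjusted p-values from 0.050005 to 0.404. None of the 24 changed direction.

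**Figure D3:**
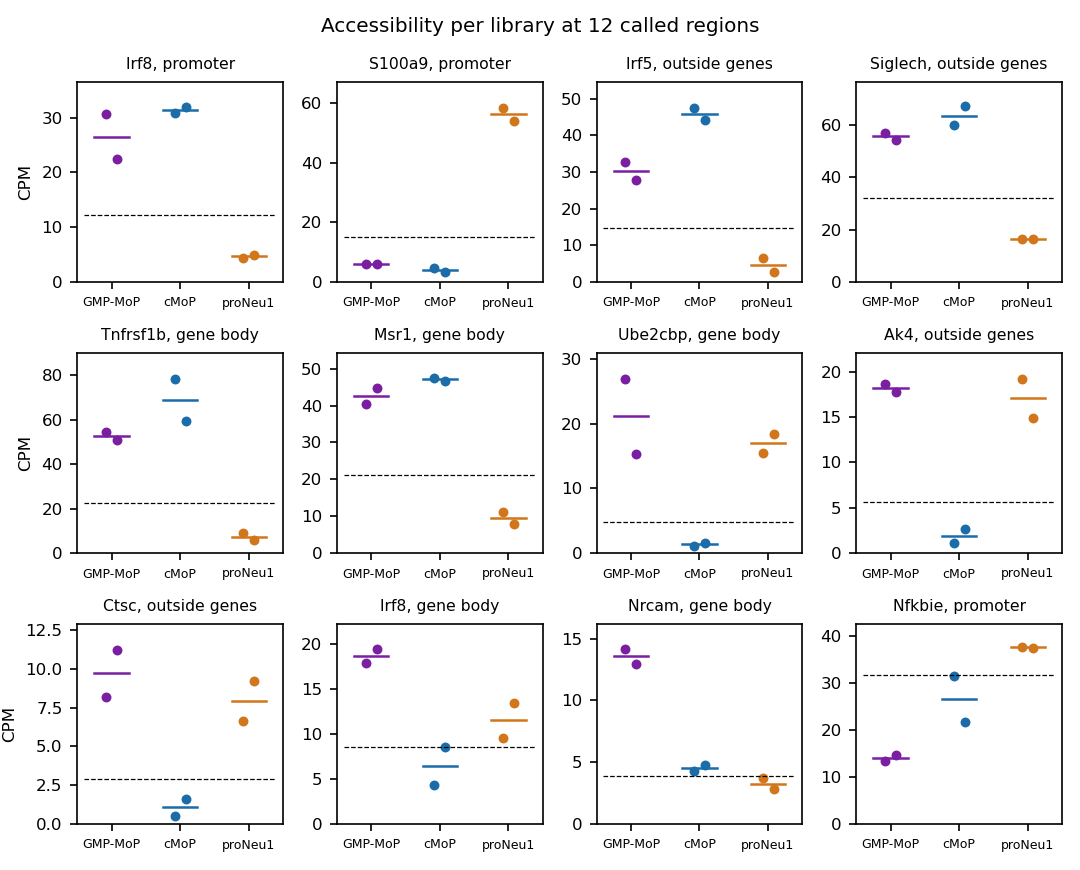
CPM in each library (points) and group mean (bar) at 12 called regions, with GMP-MoP left of cMoP and proNeu1, and the midpoint on the log scale as a dashed line. At the Irf8 promoter, Irf5, Siglech, Tnfrsf1b and Msr1 the GMP-MoP points sit by cMoP above the dashed line. At S100a9 they sit by cMoP below it, at Ube2cbp, Ak4 and Ctsc by proNeu1 above it, at Nrcam above both populations and at Nfkbie below both.

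The mirror class, 104 regions higher in proNeu1 with GMP-MoP below the midpoint, held mostly small differences. The median departure was -0.63 on the log2 scale. GMP-MoP was within 0.32 log2 units of cMoP at 65 regions, was at or beyond the cMoP level at 100, and differed from cMoP by edgeR's test at 0 of them, with 14 lower than cMoP at an unadjusted p under 0.05. The 95% interval of GMP-MoP minus cMoP lay within 2 fold at 80. These places were read in the libraries that made the call. The median absolute difference between proNeu1 and cMoP in the class was only 0.78 log2 units. A departure large enough to be called there tends to reach cMoP, so the counts are no separate evidence of where GMP-MoP stands. The S100a9 promoter region (chr3:90695381-90696322), at the gene of a calcium-binding protein that fills the neutrophil cytosol, had 5.97 and 5.90 CPM in GMP-MoP, 4.80 and 3.19 CPM in cMoP and 58.3 and 53.9 CPM in proNeu1. GMP-MoP stood just over cMoP and far under proNeu1 (log2 difference from the midpoint -1.33, SE 0.406, edgeR adjusted p = 0.049). The strongest region linked to S100a9, which starts at chr3:90709710, was not called (edgeR adjusted p = 0.813).

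A region 4754 bp outside Camp, the cathelicidin gene of secondary granules (chr9:109854210-109855021), had 1.49 and 1.77 CPM in GMP-MoP, 1.07 and 4.79 CPM in cMoP and 23.6 and 16.3 CPM in proNeu1 (-2.17, SE 0.719, edgeR adjusted p = 0.0369). A region 1181 bp outside Lyz2, the lysozyme gene of monocytes and neutrophils (chr10:117275403-117276360), had 2.99 and 2.36 CPM in GMP-MoP, 5.34 and 2.13 CPM in cMoP and 31.7 and 22 CPM in proNeu1 (-1.90, SE 0.575, edgeR adjusted p = 0.0273). At both, GMP-MoP and cMoP overlapped at low levels. Within Mmp9, a gelatinase of neutrophil granules (chr2:164942515-164943586), the difference was smaller, with 26.1 and 17.7 CPM in GMP-MoP, 28.8 and 30.3 CPM in cMoP and 50.2 and 48.3 CPM in proNeu1 (-0.82, SE 0.222, edgeR adjusted p = 0.0246).

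The largest departures of this class rested on few GMP-MoP counts. Within St3gal5, a sialyltransferase of ganglioside synthesis (chr6:72114755-72115535), GMP-MoP had 1.49 and 0.59 CPM, cMoP 1.07 and 3.19 CPM and proNeu1 29.5 and 20.6 CPM. The ratio of proNeu1 to GMP-MoP was 25.2 (95% interval 8.28 to 125.4, counting error only, 3 counts in GMP-MoP and 69 in proNeu1). Near Nucb2 (chr7:116496623-116497363) the ratio of proNeu1 to GMP-MoP was 23.0 (5.995 to 197, 2 counts in GMP-MoP and 42 in proNeu1). Within Osbpl11 (chr16:33169500-33170112), the furthest below the midpoint of those named, the ratio was 30.7 (5.08 to 1256, 1 count in GMP-MoP and 28 in proNeu1). All 3 calls were at regions where cMoP was low as well, and the Osbpl11 call was lost with each library left out (edgeR adjusted p from 0.0593 to 0.611).

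The class also took in the E2f1 promoter and a region near Actb. The E2f1 promoter region (chr2:154568898-154570536), at the gene of a cell cycle factor, had 79.2 and 69.1 CPM in GMP-MoP, 91.3 and 83.0 CPM in cMoP and 120 and 128 CPM in proNeu1 (-0.50, SE 0.14, edgeR adjusted p = 0.0345). A region near Actb (chr5:142920360-142921615) had 46.3 and 38.4 CPM in GMP-MoP, 50.7 and 52.7 CPM in cMoP and 81.9 and 81.6 CPM in proNeu1 (-0.63, SE 0.17, edgeR adjusted p = 0.0264). At both, GMP-MoP lay below both populations' libraries, with cMoP the nearer.

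Of 11 calls of this class followed, 4 were kept without the first and 0 without the second GMP-MoP replicate, 4 and 5 without the first and the second cMoP replicate, and 1 and 4 without the first and the second proNeu1 replicate, and the lost calls had edgeR adjusted p-values from 0.050005 to 0.65. The S100a9 promoter call was lost with each library left out (edgeR adjusted p from 0.0551 to 0.464), with log2 differences from -1.47 to -1.18.

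At 42 regions GMP-MoP lay on the proNeu1 side instead, above a midpoint pulled down by cMoP. GMP-MoP was within 0.32 log2 units of proNeu1 at 19, exceeded it at 35 and differed from it by the test at 2, and the median position was 1.16. These places were read in the libraries that made the call. The median difference between proNeu1 and cMoP was 1.71 log2 units and the median departure 1.26, so the call itself favours positions near or past proNeu1. Over all regions at least 2 fold higher in proNeu1 the median position was 0.44. Within Ube2cbp (chr9:86372660-86373714) levels were 26.9 and 15.3 CPM in GMP-MoP, 1.07 and 1.60 CPM in cMoP and 15.5 and 18.5 CPM in proNeu1. GMP-MoP and proNeu1 overlapped, both more than any cMoP library (log2 difference from the midpoint 2.07, SE 0.409, edgeR adjusted p = 0.000154), and the call held with each of the 6 libraries left out.

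A pair of regions within Ets1, an ETS factor gene of early and lymphoid blood cells, were in this class. At chr9:32705634-32706645 levels were 21.7 and 17.7 CPM in GMP-MoP, 2.13 and 4.79 CPM in cMoP and 23.6 and 13.5 CPM in proNeu1 (1.27, SE 0.319, edgeR adjusted p = 0.0149). At chr9:32711943-32713044 levels were 23.9 and 26.0 CPM in GMP-MoP, 1.60 and 3.72 CPM in cMoP and 46.5 and 46.8 CPM in proNeu1 (1.15, SE 0.307, edgeR adjusted p = 0.0181). At the first GMP-MoP overlapped proNeu1, and at the second it lay between the populations and differed from both by the test, so only the midpoint on the log scale was exceeded: its log2 difference from the plain CPM average was 0.02. The Ets1 region with the highest level (chr9:32695378-32696615) had 75.4 and 59.6 CPM in GMP-MoP, 58.7 and 62.2 CPM in cMoP and 68.6 and 68.8 CPM in proNeu1, and was not called (edgeR adjusted p = 0.911).

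A region 33046 bp outside Ctsc (chr7:88244231-88244978), the cathepsin C protease that activates the serine proteases of primary granules, had 8.22 and 11.2 CPM in GMP-MoP, 0.534 and 1.60 CPM in cMoP and 6.64 and 9.23 CPM in proNeu1 (1.71, SE 0.513, edgeR adjusted p = 0.0338). A region 13941 bp outside Ak4, an adenylate kinase of mitochondria (chr4:101401748-101402537), had 18.7 and 17.7 CPM in GMP-MoP, 1.07 and 2.66 CPM in cMoP and 19.2 and 14.9 CPM in proNeu1 (1.66, SE 0.374, edgeR adjusted p = 0.00303). At both, GMP-MoP and proNeu1 overlapped and cMoP was low. Within Ttc24 (chr3:88077223-88078019) cMoP had no count, and GMP-MoP with 12.7 and 8.26 CPM was at least 13.1-fold higher than cMoP, against 19.2 and 23.4 CPM in proNeu1. Against the plain CPM average the Ttc24 difference was -0.0573 on the log2 scale, so its direction turned with the scale. Of 8 calls of this class followed, 6 were kept without the first and 1 without the second GMP-MoP replicate, 3 and 6 without the first and the second cMoP replicate, and 6 and 5 without the first and the second proNeu1 replicate, and the lost calls had edgeR adjusted p-values from 0.0506 to 0.613.

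Regions outside the range of both populations were few: 33 were above both cMoP and proNeu1 and 10 below both, with both pairwise tests called. Within Nrcam (chr12:44438567-44439434), a cell adhesion gene best known from neurons, levels were 14.2 and 12.99 CPM in GMP-MoP, 4.27 and 4.79 CPM in cMoP and 3.69 and 2.84 CPM in proNeu1 (log2 difference from the midpoint 1.80, SE 0.399, edgeR adjusted p = 0.00442). Near Abcb1b, a drug efflux transporter (chr5:8774986-8775816), levels were 14.9 and 15.3 CPM in GMP-MoP, 4.80 and 3.19 CPM in cMoP and 8.12 and 3.55 CPM in proNeu1 (1.64, SE 0.361, edgeR adjusted p = 0.00475). Both GMP-MoP libraries were higher than all 4 others at both regions.

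Below both populations stood the promoter of Nfkbie, an inhibitor of NF-kB (chr17:45555256-45556209), with 13.4 and 14.8 CPM in GMP-MoP, 31.5 and 21.8 CPM in cMoP and 37.6 and 37.6 CPM in proNeu1 (-1.16, SE 0.262, edgeR adjusted p = 0.00427). Within Fmnl2, a formin that builds actin filaments (chr2:52966791-52968024), levels were 7.47 and 2.36 CPM in GMP-MoP, 16.0 and 12.2 CPM in cMoP and 21.4 and 16.3 CPM in proNeu1 (-1.80, SE 0.433, edgeR adjusted p = 0.00359). Within St6gal1, which adds sialic acid to glycoproteins (chr16:23233112-23234025), levels were 7.47 and 8.26 CPM in GMP-MoP, 17.1 and 21.3 CPM in cMoP and 19.9 and 22 CPM in proNeu1 (-1.33, SE 0.339, edgeR adjusted p = 0.00939). In all 3 the 2 GMP-MoP libraries were lower than the other 4.

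Of 5 calls followed above both populations, 4 were kept without the first and 0 without the second GMP-MoP replicate, 5 and 4 without the first and the second cMoP replicate, and 4 and 2 without the first and the second proNeu1 replicate (edgeR adjusted p of the lost calls from 0.0564 to 0.791). Of 5 below both, 2, 1, 4, 5, 5 and 4 were kept in the same order of libraries (edgeR adjusted p of the lost calls from 0.0615 to 0.5). The 33 regions above both are 31 at which proNeu1 and cMoP were not called different and 2 at which cMoP was higher. A further 67 regions above and 25 below the midpoint had proNeu1 and cMoP not called different and 1 of the pairwise tests not called.

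The regions of a single gene did not always take the same place. At Irf8 the promoter stood with cMoP, as given above. A region within the gene (chr8:120740696-120741678) had 17.9 and 19.5 CPM in GMP-MoP, 4.27 and 8.51 CPM in cMoP and 9.60 and 13.5 CPM in proNeu1, so that both GMP-MoP libraries were highest (log2 difference 1.12, SE 0.301, edgeR adjusted p = 0.0301). There GMP-MoP was higher than cMoP by the test (edgeR adjusted p = 0.0029) and GMP-MoP minus proNeu1 was not called (edgeR adjusted p = 0.13). The strongest region linked to Irf8, 35656 bp outside it (chr8:120792350-120793557), had 41.8 and 43.7 CPM in GMP-MoP, 53.4 and 53.7 CPM in cMoP and 19.2 and 22.7 CPM in proNeu1, and did not differ from the midpoint by the test (0.35, SE 0.189, edgeR adjusted p = 0.371). The promoter call ended without either GMP-MoP library (edgeR adjusted p = 0.188 and 0.0942) and without either proNeu1 library (0.0809 and 0.0668). The call within the gene ended without either GMP-MoP library (edgeR adjusted p = 0.0734 and 0.457), without cMoP replicate 1 (0.181) and without proNeu1 replicate 1 (0.101).

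Calls above and below the midpoint had unlike positions in the genome. Promoter regions, those that overlap a RefSeq promoter window, made up 19.95% of tested regions, 4.35% (22) of those above the midpoint and 54.0% (75) of those below it. In the class higher in proNeu1 with GMP-MoP below, 60.6% were promoters, against 3.30% in the class higher in cMoP with GMP-MoP above. Regions with no protein-coding gene within 50 kb were 24.3% of the calls above, 1.44% of the calls below and 10.4% of all tested. The median level was 15.5 CPM at calls above, 51.7 CPM at calls below and 12.3 CPM over all tested regions.

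The share of counts that fell in promoter regions moved with the groups, at 41.2% and 38.8% in GMP-MoP, 39.4% and 36.8% in cMoP and 45.5% and 45.0% in proNeu1. The median log2 difference from the midpoint was -0.10 over promoter regions and 0.10 over the others. When promoter regions were given scaling factors of their own, an alternative chosen after seeing the data, 14 promoter regions were called below the midpoint in place of 75, while calls in all were 388 above and 148 below. In that fit the Nfkbie promoter was still called (edgeR adjusted p = 0.0138), and the promoters of E2f1 (edgeR adjusted p = 0.0987) and S100a9 (edgeR adjusted p = 0.0862) were not.

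In the main fit, promoter windows of the calls below were richer in GC than those above. The sets were not matched for level. With separate promoter factors 14 promoter regions were called below, and their windows were not read apart. The median GC content was 65.3% below the midpoint, 53.8% above it and 62.0% over all 9071 promoter regions tested. The GC box GGGCGG, on either strand, was found in 64 of 75 windows below (85.3%), 10 of 22 above (45.5%) and 68.5% of all. The C/EBP letters TTGCNNAA were found in 8 of 75 below (10.7%), 3 of 22 above (13.6%) and 8.10% of all, and the ETS core GGAAGT in 30.7% below, 27.3% above and 29.4% of all.

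**Figure D4:**
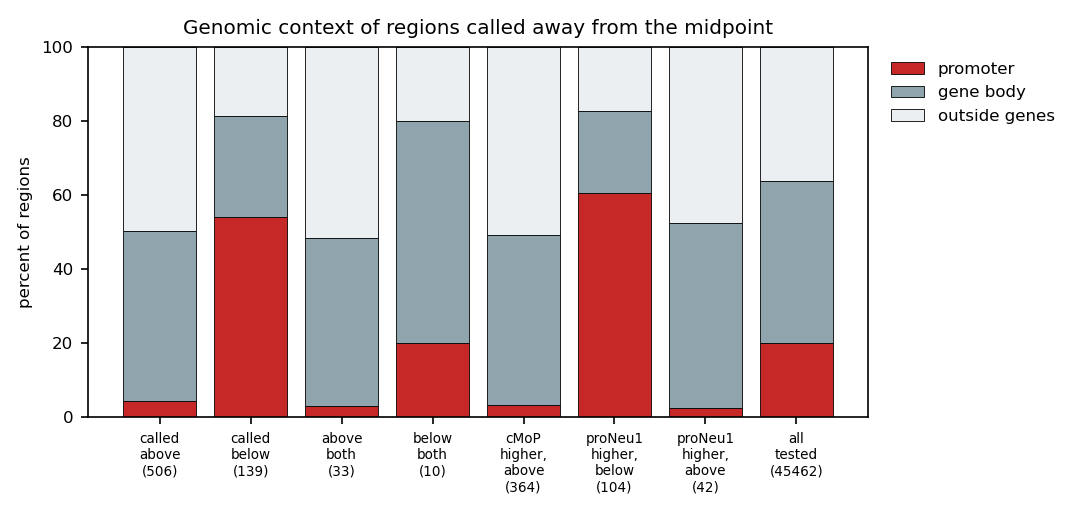
Percent of regions at promoters, in gene bodies and outside genes (vertical) for the sets of calls and for all tested regions at the right, with the number of regions under each bar. Promoters are 54.0% of the calls below the midpoint and 4.35% of those above, against 19.95% of all tested regions.

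Gene lists of the myeloid programmes were read by counts and medians. The 16 lists covered 884 tested regions, of which 18 (2.04%) were called above the midpoint and 8 (0.905%) below, against 1.11% and 0.306% of all tested. The monocyte and macrophage list had 5 of 112 regions above (2 at Irf8, and 1 each at Irf5, Tlr4 and Ctss) and 2 below (Lyz2 and Nr4a1), with a median log2 difference of 0.11 against 0.05 over all regions. Its 34 regions with at least 2 fold between proNeu1 and cMoP had a median position of 0.23, and 29 lay nearer cMoP. The list of later granule and neutrophil maturation genes had 0 of 49 regions above (1 at an unadjusted p under 0.05) and 3 below by edgeR (Camp, Mmp9 and S100a9), with a median of -0.42. There 32 regions differed by 2 fold, 28 of them higher in proNeu1, with a median position of 0.22 and 28 nearer cMoP.

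The primary granule list covers the first granule set that neutrophil precursors make. It had 1 of 27 regions above (Ctsc) and 0 below by edgeR (0 at an unadjusted p under 0.05), a median of 0.31, and a median position of 0.83 over 9 regions with 2 fold between the populations, 4 of them nearer cMoP. The Mpo promoter (chr11:87793055-87794324), at the gene of myeloperoxidase, had 79.2 and 65.5 CPM in GMP-MoP, 45.9 and 46.3 CPM in cMoP and 67.2 and 86.6 CPM in proNeu1. GMP-MoP overlapped proNeu1 and was higher than cMoP by the test (edgeR adjusted p = 0.015), but the difference from the midpoint was not called (0.27, SE 0.15, edgeR adjusted p = 0.398). The Elane promoter (chr10:79886018-79886645), at the gene of neutrophil elastase, had 13.4 and 26.0 CPM in GMP-MoP, 11.7 and 9.04 CPM in cMoP and 18.5 and 26.3 CPM in proNeu1, and was not called (0.41, SE 0.263, edgeR adjusted p = 0.48).

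The ETS and stem cell factor list had 5 of 150 regions above the midpoint (2 at Ets1, 2 at Mecom and 1 at Etv6) and 0 below by edgeR (5 at an unadjusted p under 0.05). The list of C/EBP, GFI1 and myeloid transcription factors had 1 of 132 above, the Runx1 region, and 0 below (13 at an unadjusted p under 0.05). The dendritic list had 2 of 50 above (Siglech and Ciita), the cytokine and growth factor receptor list 2 of 93 above (Cxcr4 and Tnfrsf1b) and 1 below (Ccr1), the Ym1 and regulatory myeloid list 1 of 37 above (Msr1) and the inflammatory list 1 of 76 above (Ccl2). The interferon list had 0 of 26 in either direction (2 above and 3 below at an unadjusted p under 0.05), the cell cycle list 1 of 72 below (E2f1) and the housekeeping list 1 of 27 below (Actb).

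Lists for cells outside these lineages had no call in either direction by edgeR: 0 of 11 regions for B cells, 0 of 9 for T and NK cells, 0 of 10 for erythroid cells and megakaryocytes and 0 of 3 for mast cells, basophils and eosinophils. Over all tested regions 1.42% were called, so the absence of a call in lists this small does not set them apart. At an unadjusted p under 0.05 there was 1 region above for B cells, 2 above for mast cells, basophils and eosinophils, and 0 otherwise. Summed levels of the B cell list were 127 CPM in GMP-MoP, 98.6 CPM in cMoP and 133 CPM in proNeu1, from 5 of 8 genes with a tested region. Those of the mast cell, basophil and eosinophil list were 38.5, 30.4 and 23.1 CPM in the same order, from 3 of 8 genes, with a median log2 difference of 1.12. The part of such cells in the results was not tested.

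**Figure D5:**
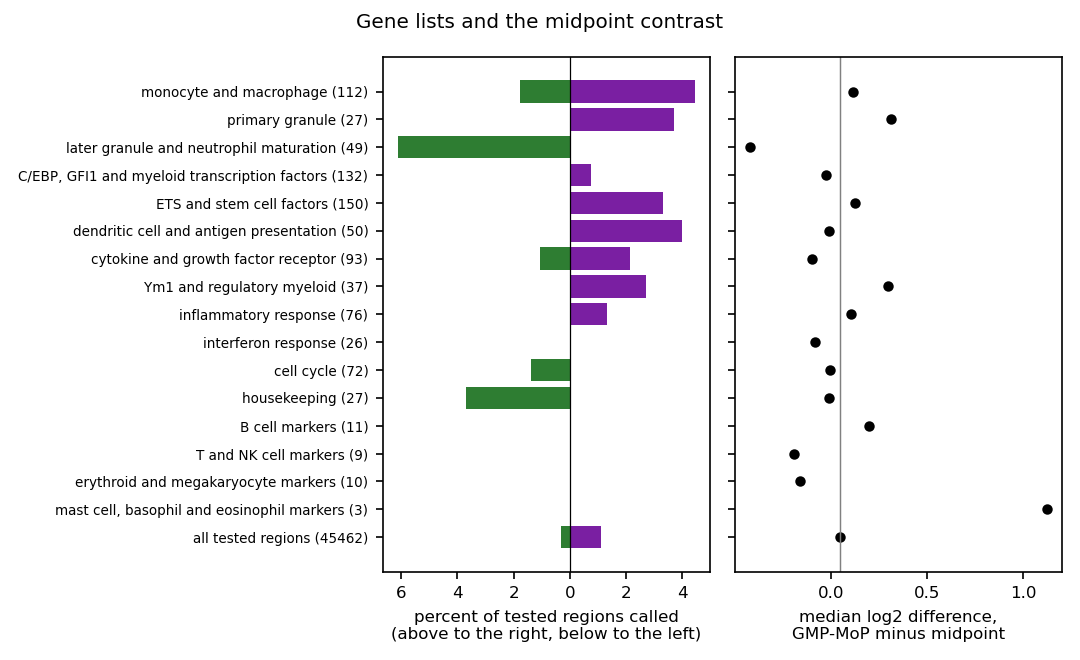
Percent of each list's tested regions called above the midpoint (purple, to the right) and below it (green, to the left), and at the right the median log2 difference from the midpoint, with the number of tested regions after each list name and all tested regions in the last row. The later granule list has 3 of 49 regions below and a median of -0.42, and the monocyte list 5 of 112 above.

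For 34 lineage and housekeeping genes the strongest linked region was read whatever its test, and only those of Irf5 and Siglech were called. A region that was not called is not shown to sit at the midpoint. Within Csf1r, the receptor of the monocyte growth factor, levels were 47.8 and 44.9 CPM in GMP-MoP, 63.0 and 61.7 CPM in cMoP and 24.4 and 24.8 CPM in proNeu1, without overlap and with a position of 0.32 (log2 difference 0.24, SE 0.181, edgeR adjusted p = 0.571). Near Cebpe, the C/EBP factor of granule maturation (chr14:54705441-54707330), levels were 32.1 and 20.1 CPM in GMP-MoP, 14.9 and 11.2 CPM in cMoP and 73.8 and 91.6 CPM in proNeu1 (-0.37, SE 0.222, edgeR adjusted p = 0.442). GMP-MoP there differed from both populations by the test.

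The promoters of Ngp, Camp and S100a8 had GMP-MoP near cMoP without a call. The Ngp promoter (chr9:110419368-110420176), at a secondary granule gene, had 2.99 and 2.95 CPM in GMP-MoP, 3.202 and 0.532 CPM in cMoP and 43.5 and 36.2 CPM in proNeu1 (-1.53, SE 0.575, edgeR adjusted p = 0.133). The S100a8 promoter had 24.6 and 28.9 CPM in GMP-MoP, 19.7 and 23.9 CPM in cMoP and 68.6 and 67.4 CPM in proNeu1 (-0.51, SE 0.207, edgeR adjusted p = 0.185). Genes of general myeloid identity were close in all groups: the Cebpa promoter had 102 and 72.0 CPM in GMP-MoP, 81.6 and 79.3 CPM in cMoP and 89.3 and 101 CPM in proNeu1, and a region within Spi1 had 45.6 and 39.5 CPM in GMP-MoP, 44.3 and 40.4 CPM in cMoP and 44.3 and 53.2 CPM in proNeu1.

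The proNeu2 libraries, which the contrast did not use, gave a further reading of each class on a scale set over all 8 libraries. At the 364 regions higher in cMoP with GMP-MoP above, median levels were 20.2 CPM in GMP-MoP, 23.2 CPM in cMoP, 3.13 CPM in proNeu1 and 2.82 CPM in proNeu2, and proNeu2 was below GMP-MoP at all 364. At the 104 regions higher in proNeu1 with GMP-MoP below, medians were 39.6, 49.1, 78.9 and 86.1 CPM in the same order. At the 42 regions where GMP-MoP lay on the proNeu1 side, medians were 17.7, 3.46, 14.4 and 12.2 CPM, and proNeu2 was nearer proNeu1 than cMoP at 39. At the 33 regions above both populations, medians were 26.8, 14.9, 12.8 and 8.90 CPM, and proNeu2 exceeded GMP-MoP at none of them.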

How the data were processed

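ATAC-seq of sorted mouse bone marrow progenitors was measured in 8 samples in 4 groups of 2. The deposited files give whole-number read counts per region, taken as raw counts; the submitters' processing notes name Bowtie2 2.3.5.1, HOMER 4.11, edgeR 3.32.1 and mm10, with no roles. The sources used here do not say how reads were shifted for Tn5 or deduplicated, or how regions were called. Totals cover the 61196 deposited regions only, so whole library depth is unknown, and the intervals and floors cover counting error only.

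Counts were fitted in edgeR 4.0.16 (R 4.3.3) over 6 libraries with TMM factors, filterByExpr (minimum count 10) and robust quasi-likelihood estimation of 1 mean for each group; 45462 regions were kept. The contrast was GMP-MoP minus the average of cMoP and proNeu1. An SE is the Wald error of the fit on the log2 scale. P-values were adjusted over all tested regions (Benjamini-Hochberg) and called under 0.05. The fit was tested on simulated data. Regions were linked to the nearest protein-coding gene within 50 kb of a RefSeq table (GRCm38.p6), which covered 53906 of them (88.1%); nearness to a gene is no evidence that the region acts on it. Promoter regions overlap a RefSeq window from 250 bases before to 50 after a start.

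The contrast, gene lists and naming rule were chosen with earlier results of these data known. Regions named are the 5 furthest from the midpoint in each class and the smallest p per list and direction. The strongest region of fixed lineage genes and the list regions called were named too, and some were left out of the text. The 10 gene-linked regions with the smallest p of the contrast were added to the calls followed under the alternatives. The 5 furthest had at least 10 CPM, 1 region per gene, and both GMP-MoP libraries on the same side of the midpoint. That agreement of the GMP-MoP libraries was thus a condition of their choice. DESeq2 1.42.0, limma 3.58.1 and other scalings, filters, thresholds and left-out libraries were alternatives. The proNeu2 libraries were left out of the fit because their replicates varied about as counting alone gives (chi-square per degree of freedom 1.01).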

Additional observations from a re-analysis of the deposited data

How the results depend on the processing

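The 56 calls were followed under other scalings, low-count filters, left-out libraries, the replicate block, DESeq2 and the plain CPM midpoint, not under limma-voom or the stricter thresholds, which were read by counts. Where a value was had, the direction was kept except on the plain CPM midpoint, where Ttc24 turned to -0.0573 (adjusted p = 1). That midpoint, chosen after seeing the data, gave 69 calls above, with 28 higher in cMoP above and 2 below, and 5 higher in proNeu1 above. Of the 56 calls, 56 were kept with all 8 libraries, 54 with RLE factors, 55 with total counts, 48 with loess offsets, 53 with no low-count filter, 48 of 48 with a value at a minimum count of 20, 52 with separate promoter factors, 20 on the plain CPM midpoint and 0 with DESeq2. DESeq2 called 0 above, 0 below and 0 in each class; the cause was not tested.

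An adjusted p under 0.01 left 137 calls above and 12 below, with 115 higher in cMoP above, 7 higher in proNeu1 above and 8 higher in proNeu1 below. At least 2 fold left 37 below, 20 of them higher in proNeu1. Regions with more than 3 counts in each group, chosen after seeing the data, left 332 above, 229 of them higher in cMoP. That setting takes calls near the floor out of the test. Of the 506 calls above, 98 had cMoP or proNeu1 at 3 counts or fewer, against 0 of the 139 below. GMP-MoP had 3 counts or fewer at 4 of the calls below. limma-voom gave 291 above, 165 higher in cMoP. All 8 libraries gave 234 below, 171 higher in proNeu1, and total counts 775 above, 553 higher in cMoP, with 62 below higher in proNeu1. Calls higher in cMoP and below, 0 as reported, numbered 1 with all 8 libraries, RLE factors, loess offsets, separate promoter factors or the replicate block, and 2 with total counts or a minimum count of 20.

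With 1 library left out, calls ranged from 23 to 464 above and from 2 to 247 below, from 15 to 317 higher in cMoP above, from 0 to 1 higher in cMoP below, from 7 to 37 higher in proNeu1 above and from 0 to 211 higher in proNeu1 below. The lone library of a group is then assumed to vary like the others.

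The median position at regions higher in proNeu1 ranged from 0.405 to 0.511 with 1 library left out, and was 0.508 at 4 fold between proNeu1 and cMoP, 0.502 with total counts, 0.42 with loess offsets, 0.462 with no filter, 0.474 at a minimum count of 20 and 0.421 with separate promoter factors. For regions at least 4 fold apart in 1 replicate number, the ratio of medians measured in the other was 0.417 and 0.374. At regions higher in cMoP that ratio was 0.314 in replicate 2 for regions chosen in replicate 1. It was 0.383 in replicate 1 for regions chosen in replicate 2, where the 2 directions were close.

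The labels do not say whether samples with the same replicate number belong together. Over all tested regions, replicate differences correlated at 0.083 between GMP-MoP and cMoP, -0.0125 between GMP-MoP and proNeu1 and 0.0023 between cMoP and proNeu1. Counting noise at low counts draws such correlations down, so these values do not settle whether the samples were paired. With the replicate block there were 613 calls above and 203 below, 159 of those below higher in proNeu1.

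Gene lists linked within 10 kb had 15 regions above and 6 below.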

Other observations

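Beyond the lists, several genes held more than 1 region called in the same direction, as Rasgrf1, a Ras exchange factor, did with 3 regions above the midpoint. Its strongest (chr9:90033596-90034593) had 30.6 and 41.9 CPM in GMP-MoP, 48.6 and 48.4 CPM in cMoP and 2.95 and 1.42 CPM in proNeu1 (log2 difference 1.82, SE 0.343, edgeR adjusted p = 5.91e-05), the smallest p of the contrast. Within Tnr (chr1:159734768-159735813) levels were 50.8 and 46.6 CPM in GMP-MoP, 47.0 and 56.4 CPM in cMoP and 9.60 and 5.68 CPM in proNeu1 (1.29, SE 0.224, edgeR adjusted p = 0.00014), and this call held with each of the 6 libraries left out. Without GMP-MoP replicate 2 the Rasgrf1 call was lost at an edgeR adjusted p of 0.0515. Rasgrf1 and Tnr were picked for their small p.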
